A study of Mus musculus with 4 samples.

Results

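The genes described here are 10 proposed markers of mammary stem and progenitor cells. They comprise the surface proteins Procr, Tspan8, Cd44, Kit and Lrig1, the enzymes Aldh1a1, Aldh1a3 and Inpp5d, and the transcription factors Bcl11a and Bcl11b. They were chosen by symbol, with earlier results of these data known, and all 10 were found among the 24442 genes of the count table. RNA was sequenced from cells sorted by flow cytometry from mammary glands of 5-week-old female mice of the Lgr6-eGFP-CreErt2 line, in which a green fluorescent protein and a drug-inducible Cre recombinase are expressed from the Lgr6 locus. There were 2 libraries of Lgr6-positive cells and 2 libraries of Lgr6-negative cells, and the allele was present in both groups. No treatment is stated. The sort was made from lineage-negative cells, but the text does not list the lineage markers or how Lgr6-negative cells were gated, and the protocol text of all 4 libraries speaks of Lgr6-positive cells. Nothing in the labels ties the replicates to separate or pooled animals, so a p-value here reflects no more than the spread among these libraries, part of which may be technical.

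The mammary epithelium has an outer basal layer and an inner luminal layer, and transplantation and lineage tracing have been used to look for cells that can renew each of them. Procr, Tspan8 and Bcl11b have been proposed to mark stem cells of the basal layer, and an internal promoter of Inpp5d has been used as a reporter of such cells. Kit and Aldh1a3 are known for luminal progenitors, Bcl11a has been linked to both progenitors and stem cells, and Lrig1 marks stem cells of several epithelia. Cd44 and aldehyde dehydrogenase activity are best known from human breast cancer cells with tumour-forming capacity. Several of these genes are also used outside the epithelium: Cd44 and Inpp5d in leukocytes, Kit in mast cells, Bcl11a in B cells and plasmacytoid dendritic cells, Bcl11b in T cells and Procr in endothelium.

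The libraries held between 6819127 and 7167465 counts. Levels are given as CPM, counts scaled to a common library total, after normalization for library composition by the trimmed mean of M-values (TMM). One count corresponded to between 0.123 and 0.178 CPM. Lgr6 itself had 172 and 655 counts in Lgr6-positive libraries, against 3 and 10 counts in Lgr6-negative libraries. Its level differed 3.9-fold between the Lgr6-positive libraries, and it narrowly missed the threshold of the test used below (edgeR adjusted p = 0.051). The summed level of 10 leukocyte markers, all detected in both populations, was 619.7 and 726.1 CPM in Lgr6-positive libraries, against 9073 and 9904 CPM in Lgr6-negative libraries. The sum of 11 basal markers was 2268 and 2399 CPM in Lgr6-positive libraries, against 263.7 and 246.0 CPM in Lgr6-negative libraries. The sum of 12 luminal secretory or progenitor markers was 4736 and 4613 CPM in Lgr6-positive libraries, against 866.4 and 1267 CPM in Lgr6-negative libraries. The populations thus differed in the markers of whole cell types. In such bulk samples, fewer cells of a type and less RNA per cell cannot be told apart.

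Of the 10 genes, 3 were higher in Lgr6-positive cells (Tspan8, Aldh1a3 and Kit) and 2 were lower (Cd44 and Inpp5d) by the quasi-likelihood test of edgeR (Benjamini-Hochberg adjusted p under 0.05 across the 11661 tested genes). Procr, Lrig1, Bcl11a and Bcl11b did not pass, and Aldh1a1 had too few counts to be tested. Over all tested genes 9.06% were called, 4.49% as higher and 4.57% as lower. The members were chosen with earlier results of these data known. A member could also pass the filter on low counts through the population where it was high. The 5 calls among 9 tested members are therefore a description of these genes. Lgr6-positive and Lgr6-negative libraries did not overlap for any of the 9 tested members, which was also true of 56.0% of all tested genes. Of the members 6 were higher and 3 were lower without overlap, against 30.0% and 25.9% of all tested genes. DESeq2 called 6 of the 9, adding Procr, against 21.1% of all genes it tested. Without TMM factors, all log2 fold changes shifted up by a median of 0.45, and 65.8% of the calls over all genes were higher, against 49.6% with them.

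**Figure D1:**
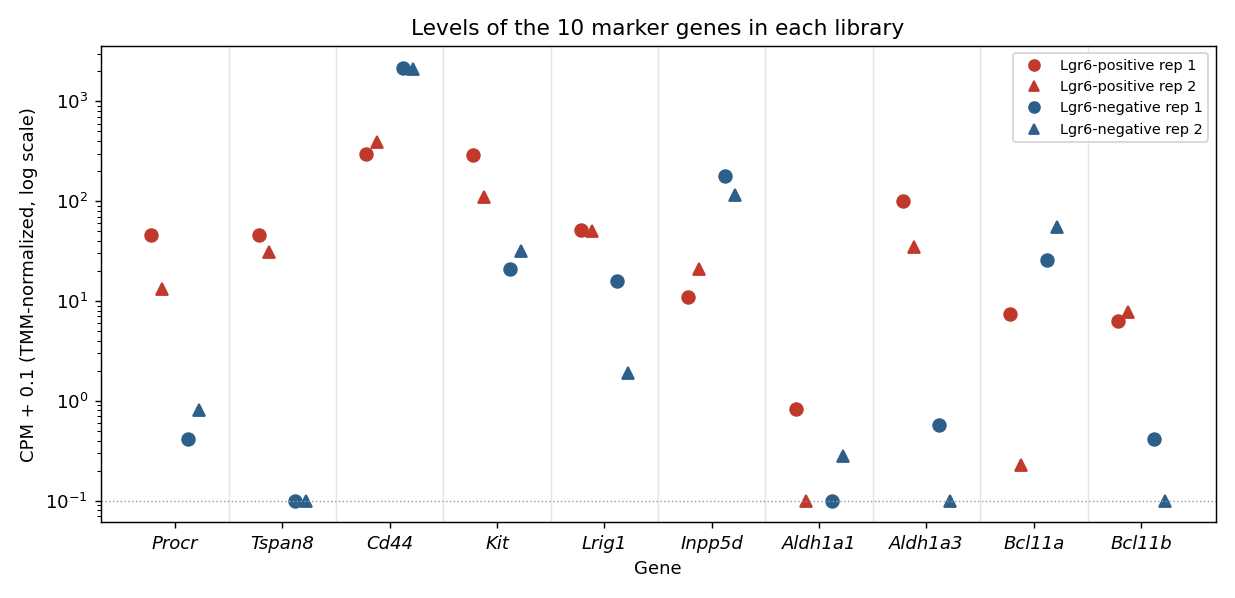
Normalized level of each of the 10 marker genes in each library, as CPM plus 0.1 on a log scale (red, Lgr6-positive; blue, Lgr6-negative; circles, replicate 1; triangles, replicate 2). The dotted line marks libraries without a count, among them both Lgr6-negative libraries for Tspan8, and the populations overlap for Aldh1a1 alone.

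Sequences around annotated starts of the called members are shown because these genes passed the test, in both directions. RefSeq promoter windows of build GRCm38.p6, from 250 bases before to 50 bases after the annotated start, were held for 9 of the 10 members and for 4 of the 5 called genes. Each is printed 5′ to 3′ on the strand of the gene, and capitals mark matches to 5 motifs searched on both strands. GAGGAAGT is the core bound by the myeloid factor PU.1. TGACTCA is bound by AP-1, and TATAAA is the TATA box. CCAAT is the core of the CCAAT box. GGGCGG is that of the GC box.
Tspan8 (chr10:115817034-115817333, plus strand): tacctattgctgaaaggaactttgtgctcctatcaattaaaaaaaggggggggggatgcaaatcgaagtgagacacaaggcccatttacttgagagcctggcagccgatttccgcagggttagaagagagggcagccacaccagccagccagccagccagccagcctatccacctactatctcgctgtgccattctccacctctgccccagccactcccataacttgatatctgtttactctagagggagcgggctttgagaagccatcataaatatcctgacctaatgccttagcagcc
Kit (chr5:75574737-75575036, plus strand): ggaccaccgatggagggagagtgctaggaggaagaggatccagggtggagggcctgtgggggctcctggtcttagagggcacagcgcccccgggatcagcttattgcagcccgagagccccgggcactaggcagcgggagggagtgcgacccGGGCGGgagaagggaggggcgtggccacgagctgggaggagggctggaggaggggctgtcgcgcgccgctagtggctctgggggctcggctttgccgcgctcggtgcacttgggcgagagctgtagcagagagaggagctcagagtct
Cd44 (chr2:102901616-102901915, minus strand): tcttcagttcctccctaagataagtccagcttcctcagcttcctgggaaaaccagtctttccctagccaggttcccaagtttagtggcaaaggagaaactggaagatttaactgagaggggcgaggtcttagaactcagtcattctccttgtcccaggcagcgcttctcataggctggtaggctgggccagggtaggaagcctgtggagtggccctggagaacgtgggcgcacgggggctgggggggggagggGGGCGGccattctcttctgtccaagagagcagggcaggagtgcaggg
Inpp5d (chr1:87620062-87620361, plus strand): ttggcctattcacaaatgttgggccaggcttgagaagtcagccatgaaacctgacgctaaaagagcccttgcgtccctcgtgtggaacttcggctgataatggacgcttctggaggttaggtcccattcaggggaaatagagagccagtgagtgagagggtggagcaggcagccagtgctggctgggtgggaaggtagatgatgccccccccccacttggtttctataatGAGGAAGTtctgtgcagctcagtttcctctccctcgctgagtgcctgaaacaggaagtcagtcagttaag
The Inpp5d window held GAGGAAGT at bases 231 to 238 of the window, on the strand of the gene, a match found in 3.2% of all 32851 promoter windows. The Kit and Cd44 windows each held GGGCGG, which 35.7% of all windows contain, at bases 153 to 158 of the printed Kit window and at bases 254 to 259 for Cd44. The Tspan8 window held none of the 5 motifs. TGACTCA, present in 5.2% of all windows, was found in the windows of Procr, at bases 97 to 103, and of Aldh1a1, at bases 194 to 200 of the first of its 2 windows. A match describes the letters only and is not a binding site.

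Tspan8, a tetraspanin of the cell surface, was the one tested member without a count in Lgr6-negative libraries. It had 377 and 246 counts in Lgr6-positive libraries, which is 46.2 and 31.2 CPM, against 0 and 0 counts in Lgr6-negative libraries. Both Lgr6-positive libraries thus lay well above a population without a single count. Tspan8 was at least 77.3-fold higher in Lgr6-positive cells, against a floor of 3 counts per Lgr6-negative library, with an edgeR adjusted p of 0.0201 that ran up to 0.0219 over 12 alternative settings. The gene spans bases 115816832 to 115849893 of chromosome 10 (plus strand, GRCm38), and 0.2% of its exonic bases lie in another gene. The window printed above, at bases 115817034 to 115817333, lies inside this span. Gene positions are from GENCODE and the windows from RefSeq, whose starts differ here.

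Other tetraspanins, which organize membrane proteins into clusters, moved in both directions. Of 24 tested, 6 were higher, 2 were lower and 16 did not pass, with a median log2 fold change of 2.42 against 0.10 over all tested genes. The higher ones were Tspan5, Tspan9, Tspan17, Tspan18, Cd63 and Cd81, and between 7 and 9 were higher when single libraries were left out. Cd81 was at 501 and 532 CPM in Lgr6-positive libraries, against 42.9 and 81.8 CPM in Lgr6-negative libraries (log2 fold change 3.05, SE 0.47, edgeR adjusted p = 0.00564). The late endosomal tetraspanin Cd63 was higher by 3.12 (SE 0.67, adjusted p = 0.0222). The lower ones were the leukocyte tetraspanins Cd37, which library-size scaling left uncalled, and Cd53, which was at 47.1 and 13.4 CPM in Lgr6-positive libraries, against 867 and 611 CPM in Lgr6-negative libraries (log2 fold change -4.61, SE 0.64, adjusted p = 0.00358). Cd53 thus moved with the leukocyte markers, and the part of the cell types in this list was not tested.

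Procr, the endothelial receptor for protein C, was also counted almost entirely in Lgr6-positive libraries. Its counts were 373 and 103 in Lgr6-positive libraries (45.7 and 13.1 CPM), against 2 and 4 in Lgr6-negative libraries (0.312 and 0.711 CPM). The populations did not overlap, but the Lgr6-positive libraries differed 3.50-fold from each other. The log2 fold change was 5.80 (SE 1.77), and the edgeR adjusted p of 0.0772 missed the threshold. It passed with DESeq2 (5.51e-04), without the filter on low counts (0.0487) and once replicate 2 of the Lgr6-positive population was dropped (0.0203), and its highest adjusted p was 0.309. Procr lies on chromosome 2 from 155751117 to 155755471 (plus strand).

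None of 9 tested genes of the protein C system passed in edgeR with all libraries, TMM scaling and the filter as reported, with 5 at an unadjusted p under 0.05. DESeq2 called 2 higher and 1 lower, and limma-voom called 1 higher. Without single libraries, 1 to 3 were higher and 0 or 1 lower. F3, the tissue factor gene that starts coagulation, was nearest the threshold, at 88.4 and 92.1 CPM in Lgr6-positive libraries, against 3.12 and 0 CPM in Lgr6-negative libraries (log2 fold change 5.82, SE 1.57, adjusted p = 0.0530). F3 passed under 10 of 12 alternatives, all but library-size scaling and the stricter filter. Thbd, the thrombomodulin gene, whose product activates protein C, was at 222 and 425 CPM in Lgr6-positive libraries, against 105 and 133 CPM in Lgr6-negative libraries (log2 fold change 1.45, SE 0.48, adjusted p = 0.0978). Proc, which encodes protein C itself, had 36 and 47 counts in Lgr6-positive libraries, against 0 and 0 in Lgr6-negative libraries. Beside Procr, the summed level of 13 endothelial markers was 1844 and 2167 CPM in Lgr6-positive libraries, against 320.8 and 192.9 CPM in Lgr6-negative libraries. Of these markers 6 were higher and none was at 0 in either population, and their part in the level of Procr was not tested.

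Kit, the receptor tyrosine kinase for stem cell factor, was higher in Lgr6-positive cells. It was at 290.5 and 110.5 CPM in Lgr6-positive libraries, against 20.8 and 31.3 CPM in Lgr6-negative libraries. Every Lgr6-positive library was above every Lgr6-negative library, with replicate 1 of the Lgr6-positive population far above the rest. The log2 fold change was 2.95 (SE 0.68, edgeR adjusted p = 0.0311). Kit no longer passed once replicate 1 of the Lgr6-positive population was left out (log2 fold change 2.08, adjusted p = 0.152) and in limma-voom (0.0775), and the lowest adjusted p over the alternatives was 4.87e-06. Kit lies on chromosome 5 from 75574916 to 75656722 (plus strand).

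Mast cells also carry Kit, and of 10 other mast cell markers 7 had no counts in Lgr6-positive libraries, among them the proteases Cpa3, Mcpt4 and Cma1 and the IgE receptor chains Fcer1a and Ms4a2. The other 2, Tpsb2 and Tpsab1, had no counts in Lgr6-negative libraries either. In Lgr6-negative libraries, Ms4a2 had 74 and 3 counts and Cma1 had 56 and 8. The summed level of the list was 25.9 and 14.95 CPM in Lgr6-positive libraries, against 71.8 and 48.2 CPM in Lgr6-negative libraries. Of its 3 tested genes (Hdc, Gata2 and Hpgds) none passed in edgeR or DESeq2, with none at an unadjusted p under 0.05. Hdc and Gata2 had negative log2 fold changes. Hpgds had a positive one of 3.40 (SE 2.23), with 10 and 22 counts in Lgr6-positive libraries, against 0 and 2 in Lgr6-negative libraries. The part of mast cells in the level of Kit was not tested.

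Genes that act with Kit were lower or did not pass in the reported edgeR fit. Of 12 tested, 4 were lower and the other 8 did not pass, with a median log2 fold change of -0.42 that became 0.04 under library-size scaling. The kinase gene Lyn, shared by Kit and leukocyte receptors, was at 41.8 and 49.9 CPM in Lgr6-positive libraries, against 638 and 559 CPM in Lgr6-negative libraries (log2 fold change -3.71, SE 0.41, edgeR adjusted p = 0.00143). Ptpn6, a phosphatase that limits signalling in blood cells, fell by 4.17 on the log2 scale (SE 0.70, adjusted p = 0.00816). The adaptor gene Grb2 and the ubiquitin ligase gene Cbl were also lower, but neither passed under library-size scaling or with replicate 1 of the Lgr6-negative population left out, and 2 lower genes were then called. Kitl, the ligand gene, named after its values were seen, had 911 and 924 counts in Lgr6-positive libraries, against 95 and 9 counts in Lgr6-negative libraries (log2 fold change 3.79, SE 1.09, adjusted p = 0.0648). Kitl was called higher under 6 of 12 alternatives, among them DESeq2, no filter on low counts, and the fits without either Lgr6-positive replicate or replicate 1 of the Lgr6-negative cells.

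Lrig1, a transmembrane inhibitor of ERBB receptors, was steady in Lgr6-positive and variable in Lgr6-negative libraries. It was at 51.5 and 50.2 CPM in Lgr6-positive libraries, against 15.9 and 1.78 CPM in Lgr6-negative libraries. The populations did not overlap, while the Lgr6-negative libraries differed 8.95-fold from each other. The log2 fold change of 2.52 (SE 1.26, edgeR adjusted p = 0.269) did not pass under any of the 12 alternatives, with a lowest adjusted p of 0.0826. In the Lgr6-negative population, it was 4.81 when replicate 1 was left out and 1.66 when replicate 2 was. Lrig1 lies on chromosome 6 from 94604529 to 94700158 (minus strand) and shares 2.6% of its exonic bases with Slc25a26 on the other strand.

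All 9 genes of the LRIG family and its receptor targets were tested, and all had positive log2 fold changes under TMM scaling, with a median of 4.30, but only Erbb2 was called higher. Erbb2, an ERBB receptor gene, was at 111.5 and 169.9 CPM in Lgr6-positive libraries, against 0.156 and 7.64 CPM in Lgr6-negative libraries (log2 fold change 5.18, SE 1.37, edgeR adjusted p = 0.0496, and 0.0559 under a stricter filter). Egfr, the EGF receptor gene, was at 69.4 and 109 CPM in Lgr6-positive libraries, against 6.24 and 0.356 CPM in Lgr6-negative libraries (log2 fold change 4.74, SE 1.34, adjusted p = 0.0617). Between 1 and 3 genes of the list were higher when single libraries were left out, with 3 when this was replicate 2 of the Lgr6-positive or replicate 1 of the Lgr6-negative population.

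Cd44, the hyaluronan receptor, was the member with the highest level per kilobase of exon in both populations. It was at 295.5 and 394.2 CPM in Lgr6-positive libraries, against 2181 and 2130 CPM in Lgr6-negative libraries. Both Lgr6-positive libraries were far below the Lgr6-negative ones, which differed 1.02-fold from each other. Cd44 fell by 2.64 on the log2 scale (SE 0.28, edgeR adjusted p = 0.00130), and it passed under all 12 alternatives, with fold changes of -2.89 to -2.20 and adjusted p up to 0.00447. The gene spans bases 102811141 to 102901665 of chromosome 2 (minus strand). Counts per gene do not separate its splice forms.

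Of 14 tested genes of hyaluronan metabolism and of Cd44 partners, 1 was higher, 3 were lower and 10 did not pass, with 2 higher (3 where it was replicate 1 of the Lgr6-positive population) and 3 lower when single libraries were left out. Srgn, the proteoglycan of leukocyte granules, was at 34.6 and 23.6 CPM in Lgr6-positive libraries, against 810 and 957 CPM in Lgr6-negative libraries (log2 fold change -4.92, SE 0.42, edgeR adjusted p = 5.28e-04). Msn, which encodes moesin, a linker of Cd44 to actin, fell by 2.35 (SE 0.31), and the hyaluronan-binding proteoglycan gene Vcan fell by 2.93 (SE 0.41). Spp1, the osteopontin gene, whose product binds Cd44, was the higher one, at 246 and 317 CPM in Lgr6-positive libraries, against 43.1 and 14.9 CPM in Lgr6-negative libraries (log2 fold change 3.28, SE 0.64, adjusted p = 0.0157). The epithelial splicing regulators of Cd44, Esrp1 (log2 fold change 3.65, adjusted p = 0.0611) and Esrp2 (5.58, 0.0565), named after their values were seen, did not pass.

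Inpp5d, which encodes the inositol phosphatase SHIP1 of blood cells, was lower in Lgr6-positive cells like Cd44. It was at 10.8 and 20.7 CPM in Lgr6-positive libraries, against 177 and 115 CPM in Lgr6-negative libraries. The populations did not overlap, and replicates differed 1.91-fold in the Lgr6-positive and 1.54-fold in the Lgr6-negative population. Inpp5d fell by 3.22 on the log2 scale (SE 0.73, edgeR adjusted p = 0.0283). Inpp5d no longer passed once replicate 1 of the Lgr6-negative population was left out (log2 fold change -2.88, adjusted p = 0.107) or under library-size scaling (0.0605), and the lowest adjusted p was 2.16e-04. The gene lies on chromosome 1 from 87620312 to 87720507 (plus strand). The shorter transcript from its internal promoter, on which the stem cell reporter was built, is not separated in counts per gene.

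In the libraries where Cd44 and Inpp5d were high, leukocyte markers were high too. Of 10 leukocyte markers 8 were lower in Lgr6-positive cells and 2 did not pass, with none at 0 in either population. Ptprc, which encodes the CD45 phosphatase common to leukocytes, was at 48.3 and 23.4 CPM in Lgr6-positive libraries, against 1742 and 1190 CPM in Lgr6-negative libraries (log2 fold change -5.35, SE 0.48, edgeR adjusted p = 5.80e-04). Of 10 tested monocyte and macrophage markers 5 were lower, and the sum of all 11 was 1416 and 1704 CPM in Lgr6-positive libraries, against 19800 and 21680 CPM in Lgr6-negative libraries. Most of that sum was the lysozyme gene Lyz2, at 1040 and 1370 CPM in Lgr6-positive libraries, against 16970 and 18370 CPM in Lgr6-negative libraries. The complement genes of macrophages had positive log2 fold changes that did not pass, at 1.14 for C1qb (adjusted p = 0.622) and 5.28 for C1qc (0.185). The part of these cells in the levels of Cd44 and Inpp5d was not tested.

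Among 25 tested phosphoinositide phosphatases and kinases, 1 was higher, 2 were lower and 22 did not pass. Inppl1, which encodes SHIP2, the widely expressed relative of Inpp5d, was higher, at 97.6 and 207.8 CPM in Lgr6-positive libraries, against 24.2 and 22.6 CPM in Lgr6-negative libraries (log2 fold change 2.71, SE 0.68, edgeR adjusted p = 0.0423). That call was lost in limma-voom and without replicate 2 of the Lgr6-positive or either replicate of the Lgr6-negative population, with adjusted p up to 0.222. The lower ones were 2 genes of leukocyte phosphoinositide kinase subunits. These were the regulatory Pik3r5 (log2 fold change -2.88, SE 0.60, edgeR adjusted p = 0.0197) and the catalytic Pik3cd (-3.90, SE 0.87, adjusted p = 0.0263). The call of Pik3cd was lost under library-size scaling (0.0575). The median log2 fold change of the list was -0.29, and 0.14 under library-size scaling. Between 0 and 4 genes were higher and 3 or 4 lower when single libraries were left out, with 4 higher when this was replicate 1 of the Lgr6-positive population.

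**Figure D2:**
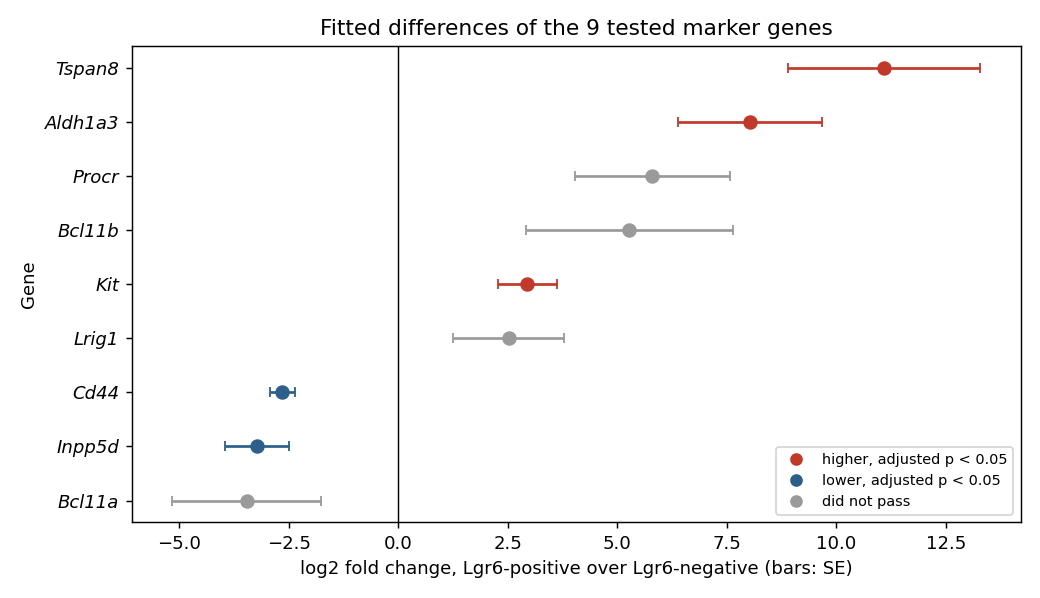
Fitted log2 fold change (Lgr6-positive over Lgr6-negative) of the 9 tested marker genes, with standard errors as bars (red, higher; blue, lower; grey, did not pass). Tspan8 and Aldh1a3 lie farthest to the right, while the bar of Cd44 is the shortest, with an SE of 0.28. The point of Tspan8, which has no Lgr6-negative counts, depends on the prior count and is not a bound.

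The aldehyde dehydrogenases Aldh1a1 and Aldh1a3 oxidize retinaldehyde to retinoic acid, and they differed in abundance. Aldh1a3 had 823 and 274 counts in Lgr6-positive libraries (100.9 and 34.7 CPM), against 3 and 0 counts in Lgr6-negative libraries (0.468 and 0 CPM). Both Lgr6-positive libraries stood far above both Lgr6-negative libraries, with a 2.91-fold difference between them. The ratio of normalized counts was 274 with a 95% counting interval from 93.6 to 1332, which covers counting error alone, since reads amplified by PCR and not tagged by molecule can be copies of each other. The edgeR adjusted p was 0.0187, and it stayed at or below 0.0270 over the 12 alternatives. Aldh1a3 lies on chromosome 7 from 66390890 to 66427517 (minus strand). Aldh1a1, on chromosome 19 from 20492715 to 20643465 (plus strand), had 6 and 0 counts in Lgr6-positive libraries, against 0 and 1 counts in Lgr6-negative libraries. Those libraries overlapped, and a difference in Aldh1a1 was not detectable at this depth (ratio 4.50, 95% counting interval from 0.546 to 207).

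The wider family did not follow Aldh1a3 past the threshold in the reported fit. None of 13 other tested aldehyde dehydrogenases passed in edgeR as reported, with 4 at an unadjusted p under 0.05. Without the filter on low counts, and with a replicate block, edgeR called 1 higher. DESeq2 called 4 higher and limma-voom 3. Aldh3b2 had 401 and 26 counts in Lgr6-positive libraries and Aldh3a1 had 154 and 31, against no counts in Lgr6-negative libraries for both. Their adjusted p-values were 0.0619 and 0.0922. Up to 2 genes of the family were higher when single libraries were left out, both without replicate 2 of the Lgr6-positive population. Of 9 tested genes of retinoid metabolism and reception, 1 was higher and 8 did not pass. This was Dhrs3, which reduces retinaldehyde back to retinol, at 210.3 and 153.3 CPM in Lgr6-positive libraries, against 45.9 and 32.2 CPM in Lgr6-negative libraries (log2 fold change 2.22, SE 0.58, adjusted p = 0.0479). It no longer passed in limma-voom or without any one library other than replicate 2 of the Lgr6-positive population, with adjusted p up to 0.154. Crabp2, a retinoic acid carrier, had 171 and 57 counts in Lgr6-positive libraries, against 0 and 0 in Lgr6-negative libraries (adjusted p = 0.0757). The receptor gene Rara was at 53.5 and 9.25 CPM in Lgr6-positive libraries, against 202.7 and 195.0 CPM in Lgr6-negative libraries (log2 fold change -2.66, SE 0.82, adjusted p = 0.0782), and it was lower under 8 of 12 alternatives, among them every one that left out a library.

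Bcl11a and Bcl11b are related zinc finger transcription factors and accessory subunits of the BAF chromatin remodelling complex, and their levels went in opposite directions. Bcl11a had 59 and 1 counts in Lgr6-positive libraries (7.24 and 0.127 CPM), against 163 and 312 counts in Lgr6-negative libraries (25.4 and 55.5 CPM). All Lgr6-positive values were below the Lgr6-negative ones, but the Lgr6-positive libraries differed 57.1-fold from each other. The log2 fold change of -3.45 (SE 1.70) had an edgeR adjusted p of 0.259. It was -8.12 and passed (0.00908) once replicate 1 of the Lgr6-positive population was dropped, and the highest adjusted p was 0.584. Bcl11a lies on chromosome 11 from 24078056 to 24174123 (plus strand) and shares 2.4% of its exonic bases with a gene on the other strand.

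Bcl11b had 50 and 60 counts in Lgr6-positive libraries (6.13 and 7.60 CPM), against 2 and 0 counts in Lgr6-negative libraries (0.312 and 0 CPM). The populations did not overlap, and the Lgr6-positive libraries were close, at 1.24-fold. The ratio was 41.3 with a 95% counting interval from 11.2 to 345. With an edgeR adjusted p of 0.208, it did not pass, nor did it under any of the 12 alternatives, with a lowest adjusted p of 0.0853 in limma-voom. Bcl11b lies on chromosome 12 from 107910403 to 108003602 (minus strand).

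Bcl11b is also a gene of T cells. Of 14 T cell markers 6 had no counts in Lgr6-positive libraries: Cd3g, Cd4, Cd8a, Cd8b1, Cd5 and Zap70. The summed level of the list was 51.0 and 78.7 CPM in Lgr6-positive libraries, against 294.7 and 277.8 CPM in Lgr6-negative libraries. Of 11 tested T cell markers 10 had negative log2 fold changes and 1, the adhesion gene Cd2, was called lower (adjusted p = 0.0263 in edgeR, and 0.0871 after leaving out replicate 2 of the Lgr6-negative population), with 3 lower without replicate 1 of the Lgr6-positive and 2 lower when replicate 1 of the Lgr6-negative population was dropped. DESeq2 called 7 of the 11 lower and limma-voom 5. The marker with a positive value was the cytokine receptor gene Il7r (log2 fold change 1.41, adjusted p = 0.459). Beside Bcl11a, the sum of 10 B cell markers was 154.0 and 139.3 CPM in Lgr6-positive libraries, against 143.1 and 137.1 CPM in Lgr6-negative libraries, with none at 0 in either population. Much of the Lgr6-positive sum was Ebf1, at 87.8 and 85.3 CPM in Lgr6-positive libraries, against 25.1 and 1.60 CPM in Lgr6-negative libraries. Of 8 tested B cell markers 3 had positive and 5 had negative log2 fold changes. Among the latter, Cd79a was at 6.38 and 9.88 CPM in Lgr6-positive libraries, against 34.17 and 51.55 CPM in Lgr6-negative libraries. None of the 8 passed in edgeR with all libraries, none had an unadjusted p under 0.05, and DESeq2 called 1 lower. The plasmacytoid dendritic cell marker Spib, a transcription factor gene, was at 0.368 and 0.253 CPM in Lgr6-positive libraries, against 3.59 and 44.1 CPM in Lgr6-negative libraries. Tcf4, another transcription factor gene of that list, was at 154.0 and 197.3 CPM in Lgr6-positive libraries, against 116.9 and 72.5 CPM in Lgr6-negative libraries. None of 4 tested markers in that list passed in edgeR with all libraries, with 1 at an unadjusted p under 0.05, and DESeq2 called 1 lower. The list summed to 292.8 and 209.5 CPM in Lgr6-positive libraries, against 228.1 and 335.4 CPM in Lgr6-negative libraries. Most of that sum was Tcf4 and Runx2. Runx2 was at 115.9 and 0.507 CPM in Lgr6-positive libraries, against 77.2 and 181.7 CPM in Lgr6-negative libraries. Of the 8 markers Cox6a2 and Klk1 were at 0 in both populations, Siglech and Ccr9 in Lgr6-positive libraries. The part of these cells in the levels of Bcl11a and Bcl11b was not tested.

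Genes of the BAF and NuRD complexes, the remodelling machinery to which Bcl11a and Bcl11b bind, differed in both directions without passing the test. None of 27 tested genes passed in edgeR, with 2 at an unadjusted p under 0.05, while DESeq2 called 1 higher and limma-voom none. Of the 27, 18 had positive and 9 had negative log2 fold changes, with a median of 0.33, against 0.10 over all tested genes. Leaving out replicate 1 of the Lgr6-positive or replicate 1 of the Lgr6-negative population gave 1 higher gene each. Its sum was 2064 and 2231 CPM in Lgr6-positive libraries, against 1845 and 1834 CPM in Lgr6-negative libraries. Mbd3, a NuRD subunit gene, had the smallest p of the list, at 29.9 and 85.0 CPM in Lgr6-positive libraries, against 6.09 and 7.82 CPM in Lgr6-negative libraries (log2 fold change 3.04, SE 1.11, edgeR adjusted p = 0.123). It passed under 2 of 12 alternatives, DESeq2 and without replicate 1 of the Lgr6-positive cells. Smarcc1, a core BAF subunit gene, was at 157 and 146 CPM in Lgr6-positive libraries, against 61.6 and 20.1 CPM in Lgr6-negative libraries (log2 fold change 1.89, SE 0.70, adjusted p = 0.126).

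**Figure D3:**
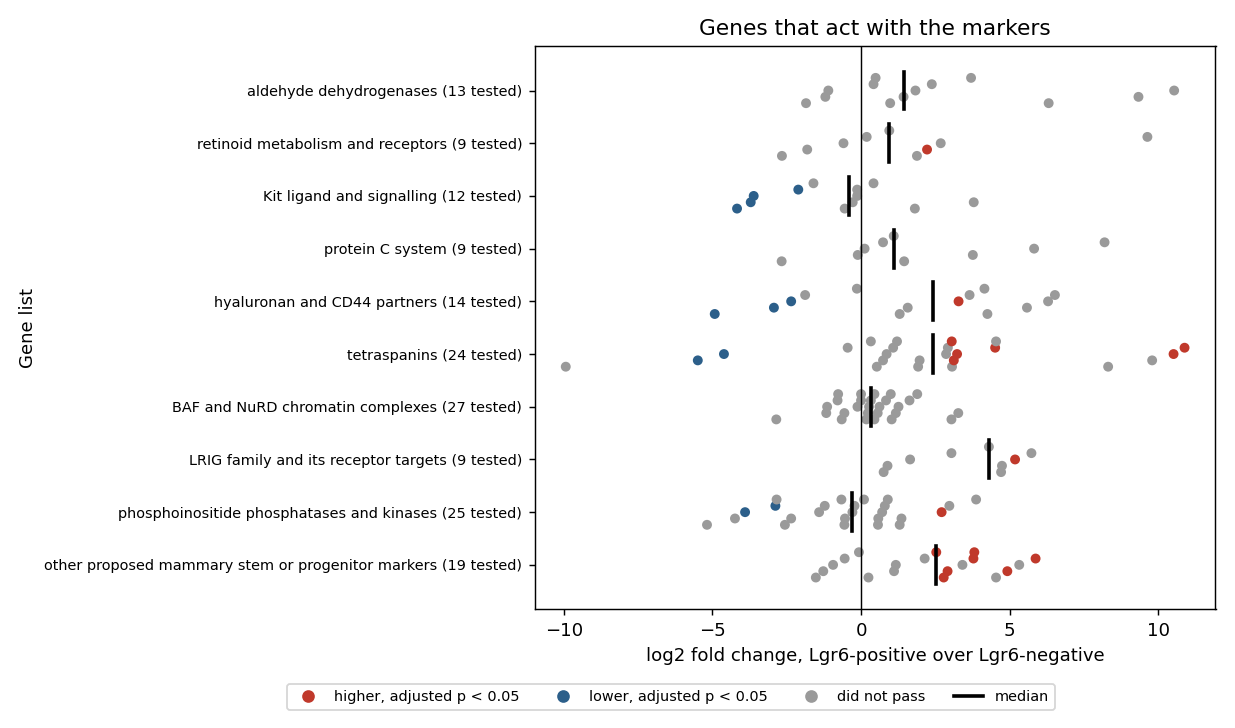
Log2 fold change (Lgr6-positive over Lgr6-negative) of every tested gene in the 10 lists of genes that act with the markers (red, higher; blue, lower; grey, did not pass; black bar, median). Points are spread vertically for legibility. Calls in both directions appear in the tetraspanin, hyaluronan and phosphoinositide lists, and the Kit list has 4 lower and no higher genes.

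Further proposed stem or progenitor markers, not among the 10, were higher or did not pass. Of 19 tested, 7 were higher (Cd24a, Notch1, Prom1, Itga6, Sox9, Sox10 and Lgr4), none was lower and 12 did not pass, with a median log2 fold change of 2.53. Cd24a, a surface antigen used to sort mammary epithelium, was at 824 and 776 CPM in Lgr6-positive libraries, against 98.9 and 133.7 CPM in Lgr6-negative libraries (log2 fold change 2.78, SE 0.37, edgeR adjusted p = 0.00279). Prom1, a marker of hormone-sensing luminal cells, was at 86.3 and 73.6 CPM in Lgr6-positive libraries, against 0.936 and 1.78 CPM in Lgr6-negative libraries (log2 fold change 5.87, SE 1.11, adjusted p = 0.0139). Itga6, the integrin used to sort basal cells, was higher by 2.53 (SE 0.51, adjusted p = 0.0182) and Notch1 by 2.91 (SE 0.50, adjusted p = 0.00959). Between 7 and 10 were higher when single libraries were left out. The basal and luminal markers were higher in the same libraries, with 4 of 11 tested basal, 8 of 11 tested luminal secretory or progenitor and 7 of 10 tested hormone-sensing markers called higher, and the part of the epithelial share in these values was not tested. The basal count was 7 without replicate 2 of the Lgr6-positive or replicate 1 of the Lgr6-negative population. In the luminal secretory list 1 gene, the monocyte antigen gene Cd14, was lower. Of other stromal lists, 1 of 6 tested pericyte markers and 5 of 12 tested fibroblast markers were higher. DESeq2 called 2 and 8 higher, and 1 fibroblast marker lower. The fibroblast marker Pi16, named after its values were seen, had a negative log2 fold change of -2.88 (SE 1.10, edgeR adjusted p = 0.137). It was at 6.38 and 6.72 CPM in Lgr6-positive libraries, against 44.5 and 52.3 CPM in Lgr6-negative libraries.

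**Figure D4:**
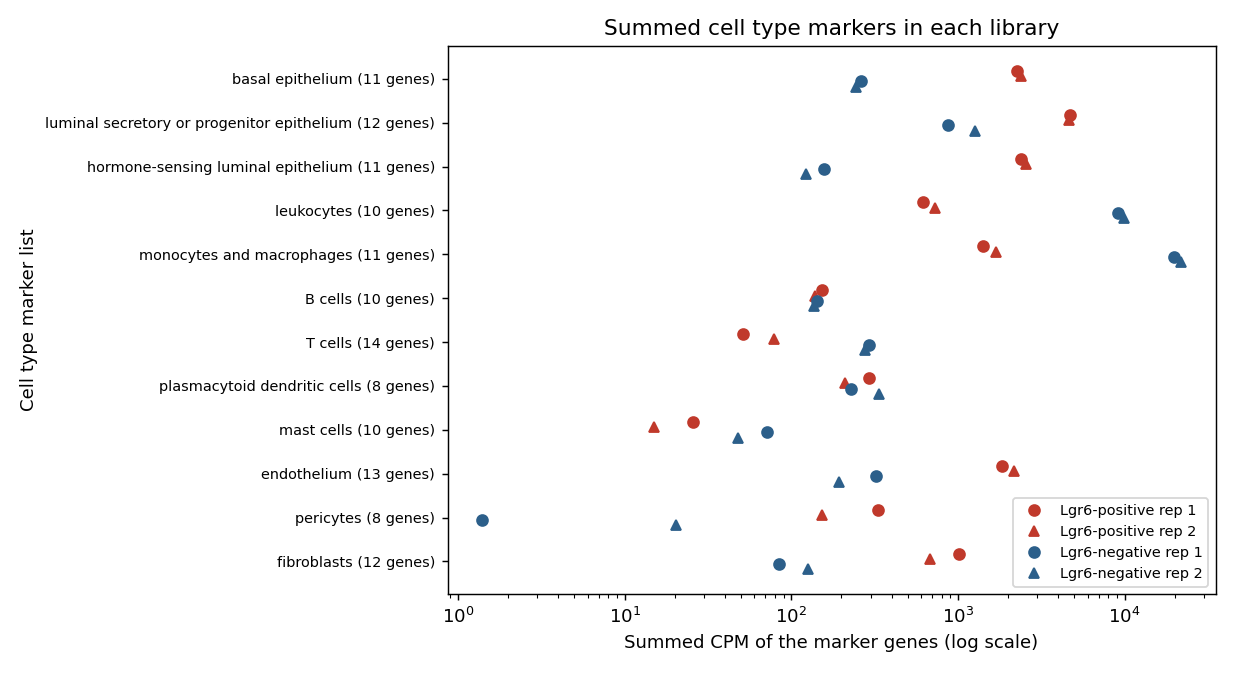
Summed CPM of the genes in each of the 12 cell type marker lists, on a log scale, in each library (red, Lgr6-positive; blue, Lgr6-negative; circles, replicate 1; triangles, replicate 2). Epithelial, endothelial, pericyte and fibroblast sums are higher in Lgr6-positive libraries, and leukocyte, monocyte and macrophage, T cell and mast cell sums are lower. For B cells, the values lie between 137.1 and 154.0 CPM in all libraries, with Ebf1 at 87.8 and 85.3 CPM in Lgr6-positive libraries, against 25.1 and 1.60 CPM.

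Divided by exonic length, the levels of the members ranked differently in each population. In Lgr6-positive cells Cd44 was first at 50.9 CPM per kilobase, followed by Tspan8 at 22.7, Kit at 22.5, Aldh1a3 at 14.7, Procr at 14.5 and Lrig1 at 9.10. Inpp5d at 2.07, Bcl11b at 0.847, Bcl11a at 0.279 and Aldh1a1 at 0.0745 CPM per kilobase were the lowest. Libraries of neighbours in this order overlapped from Tspan8 to Procr, and Lrig1, at 9.22 and 8.98 CPM per kilobase, fell within the range of Procr and Aldh1a3. In Lgr6-negative cells Cd44 was first again, at 318 CPM per kilobase, followed by Inpp5d at 19.2, Bcl11a at 3.07, Kit at 2.92 and Lrig1 at 1.58. The libraries of Bcl11a, Kit and Lrig1 overlapped in this order, at 1.93 and 4.21, 2.33 and 3.51, and 2.85 and 0.318 CPM per kilobase. The other 5 were at or below 0.252 CPM per kilobase. Among 23362 genes with an exonic length, Cd44 ranked 147th in Lgr6-negative and 561st in Lgr6-positive cells by this level. These are levels, not differences, and the length used is that of all annotated exons together.

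The genes whose levels over the 4 libraries were most like those of a member were found by the distance between log2 CPM profiles centred on their mean. A prior count of 2 was added before the logarithm, which narrows differences where counts are few, as for Bcl11b. With 4 libraries in 2 populations, such likeness is a description only. Nearest to Tspan8 were the cytokine gene Il33 (distance 0.10) and the simple-epithelial keratin gene Krt7 (0.13). Both had no counts in Lgr6-negative libraries, at 42.7 and 29.3 CPM and at 48.6 and 28.8 CPM in Lgr6-positive libraries. Nearest to Aldh1a3 were Cited1, a transcriptional cofactor gene of hormone-sensing luminal cells, at 0.40 and Vtcn1, an inhibitory ligand gene of the B7 family, at 0.52. Cited1 was at 131.5 and 48.4 CPM in Lgr6-positive libraries, against 0.780 and 0 CPM in Lgr6-negative libraries. Il17re (0.33) and Arhgap8 (0.41) lay nearest to Procr, and Clstn1 (0.17) and Fam73a (0.26) nearest to Kit.

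Cd44 lay nearest to Lrrc47 (0.02) and to the leukocyte integrin gene Itgb2 (0.14). Itgb2 was at 87.7 and 122.9 CPM in Lgr6-positive libraries, against 599 and 649 CPM in Lgr6-negative libraries. Inpp5d lay nearest to Cers6 (0.20), a ceramide synthase gene, and Sirpa (0.29), a myeloid inhibitory receptor gene, and Sirpa was at 67.9 and 127.9 CPM in Lgr6-positive libraries, against 853 and 646 CPM in Lgr6-negative libraries. Bcl11a lay nearest to Lrmp (0.26), a gene of lymphoid cells, and Prpf31 (0.34), Bcl11b to Ppl (0.25), the periplakin gene of epithelia, and Sorbs2 (0.39), and Lrig1 to Mturn (0.24) and Dtnb (0.31).

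**Figure D5:**
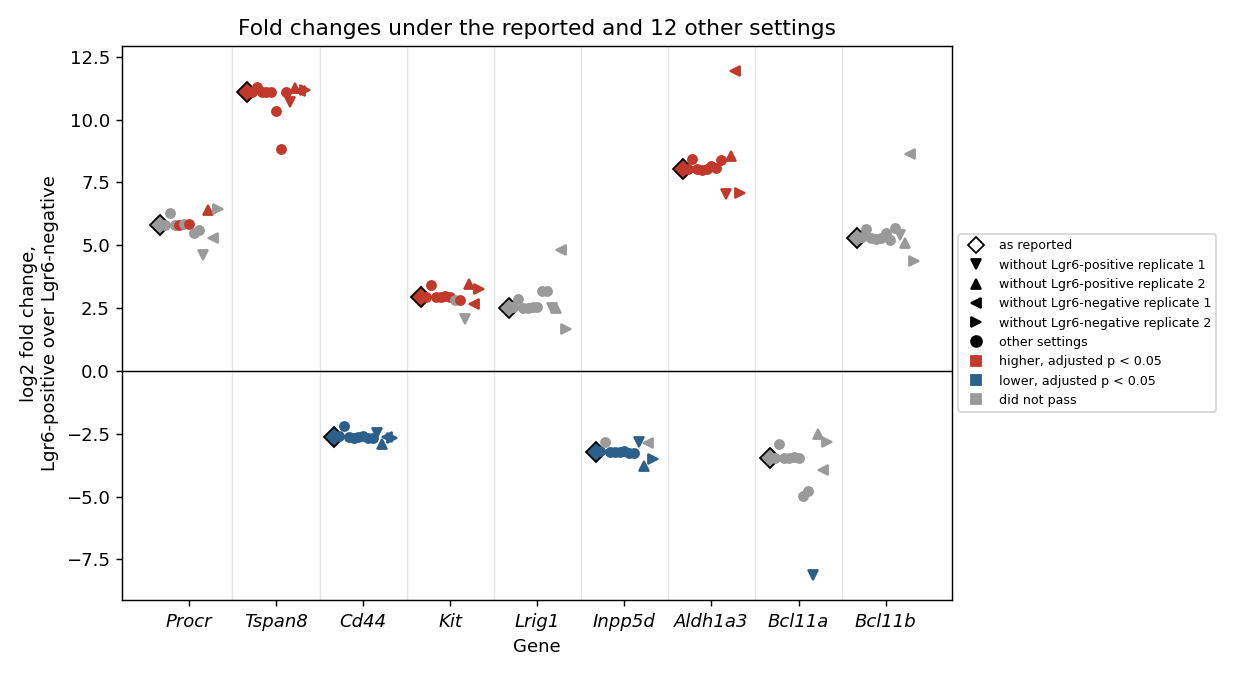
Log2 fold change (Lgr6-positive over Lgr6-negative) of the 9 tested marker genes as reported (diamond) and under 12 other settings (triangles, a library left out; circles, other scaling, filter, test or design; red, higher; blue, lower; grey, did not pass). All values of a gene keep their sign. Cd44, Tspan8 and Aldh1a3 passed under every setting drawn, and Lrig1 and Bcl11b under none.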

How the data were processed

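The authors deposited expected counts per gene for the 4 libraries in 1 file, not scaled for depth. The tools RSEM 1.2.22 and STAR 2.4.2a and the mouse build mm10 are listed per the submitters' processing notes. No annotation or strand setting is given in those notes or labels. Per the labels, RNA had integrity numbers of 5 to 8 at 7 to 25 pg per µl, was amplified in 18 PCR cycles and read as pairs of 50 bases.

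Expected counts were rounded, which touched 3.36% to 4.86% of genes in a library, and entered edgeR 4.0.16 in R 4.3.3. Genes were kept by filterByExpr (minimum count 10, minimum total 15), scaled by TMM and tested by glmQLFit and glmQLFTest between the populations. Adjusted p-values (Benjamini-Hochberg) cover all 11661 tested genes. The standard error (SE) was taken as the size of the log2 fold change divided by the root of F. Where a population had no counts, the fold is a lower limit set by a floor of 3 counts in each library. Where it had 1 to 3, a ratio is given with its exact (Clopper-Pearson) interval. Pairs of replicates varied more than counting noise (chi-square per degree of freedom 100.9 for Lgr6-positive, 86.4 for Lgr6-negative). Total counts were 6819127 and 6995568 for Lgr6-positive, against 6920996 and 7167465 for Lgr6-negative libraries. The ribosomal precursor gene Rn45s took 17.2% and 14.5% of Lgr6-positive counts, against 18.7% and 30.8% of Lgr6-negative counts.

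Exonic lengths and positions came from GENCODE M21 (GRCm38), found by symbol for 23362 genes (95.6%), and promoter sequences from RefSeq. The reported edgeR fit was first tested on simulated counts. The members and the 22 gene lists (10 of genes that act with the members, 12 of cell types) were chosen with earlier results of these data known. Named genes are the 10 members, up to 4 tested genes with the smallest p-values from each list and the 2 nearest profiles of each tested member. Ribosomal protein genes and numbered gene models were passed over as nearest profiles. Other genes were named after their values were seen. Alternatives included DESeq2 1.42.0 and voom of limma 3.58.1, other scalings and filters, a replicate block and single libraries left out. Python 3.11.15, scipy 1.17.1, numpy 2.4.6, pandas 2.3.3 and matplotlib 3.10.9 served for summaries and plots.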

Additional observations from a re-analysis of the deposited data

How the results depend on the processing

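All 108 alternative values of the 9 tested members (12 settings each) kept the direction reported, and 100 also kept their side of the threshold. The other 8 were Procr under 3 settings, Kit under 2, Inpp5d under 2 and Bcl11a under 1, as given above. The count of members called lower, 2 as reported, was 1 under library-size scaling, and ran from 1 to 3 when single libraries were left out, while the count called higher, 3 as reported, ran from 2 to 4. Over all genes, 1057 were called as reported (524 higher, 533 lower). Without a filter on low counts there were 1821 (967 higher, 854 lower), and with DESeq2 2415 (1412 higher, 1003 lower), while library-size scaling left 327 lower. Leaving out single libraries gave 1218 to 1986 calls, 678 to 956 higher and 540 to 1030 lower, each count being highest when this was replicate 1 of the Lgr6-positive population. When a library was left out, the lone sample of its population was assumed to vary like the others. The labels do not say whether the replicate numbers pair the libraries. The correlation of deviations was -0.02 across genes, which cannot settle this, since the populations themselves differ widely. With a replicate block 1340 genes were called, 678 higher and 662 lower, with 3 members higher and 2 lower. Counts were few for Aldh1a1, with 7 in all libraries, and Bcl11b had no count in 1 library. Whether depth or absence of the RNA lies behind this was not tested.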
